A study of Mus musculus with 6 samples.

Results

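The *Dlx* genes lie in the mouse genome as 3 pairs, and the peaks described here are those that Gli3 and Hand2 ChIP-seq placed around them in the embryonic face. A peak was taken when its midpoint lay within 100 kb of the body of either gene of *Dlx1*/*Dlx2*, *Dlx3*/*Dlx4* or *Dlx5*/*Dlx6*. This gave 71 of 70762 peaks, with 9 of 5427 from the Gli3 list of the mandibular prominence (MNP), 10 of 5752 from the Gli3 list of the whole face and 52 of 59583 from the Hand2 list of the MNP. All embryos were of the CD1 strain and carried a FLAG tag at the endogenous locus, with the genotype Gli3 3XFlagbio for both Gli3 groups and Hand2 3XFlagbio for the Hand2 group. The authors' list of mouse strains names the Hand2 allele Hand2 3xFlag instead. The stage is E11.5 in the sample labels and E10.5 in the design text. Each of the 3 groups had 2 replicates, each was made from tissue pooled over embryos, and an anti-FLAG M2 antibody served for both transcription factors (TFs), with a mock ChIP on wild-type tissue as control. The authors merged both replicates of a group and kept the peaks shared between them, as 1 list of positions without height or q-value. No count below therefore has an error between embryos, and the read depth is unknown. A peak called in 1 replicate alone would be missing from its list. The tissue holds several cell types, and a peak does not tell in which of them it arose.

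Dlx proteins are homeodomain TFs that pattern the pharyngeal arches. In the first arch, *Dlx1* and *Dlx2* are expressed along the whole proximal-distal axis, *Dlx5* and *Dlx6* in the lower part that becomes the MNP, and *Dlx3* and *Dlx4* most distally. Endothelin 1 signaling switches on *Dlx5* and *Dlx6*, which give the lower jaw its identity and act upstream of *Hand2*, while Gli3 is a TF of the Hedgehog pathway. In each pair the genes point towards each other, and regulatory elements shared by both genes are known to lie in the space between them.

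The reference sequences under the Gli3 peaks are shown first, because the 3 pairs differ in which of the exact Gli 8-mers below their Gli3 MNP peaks hold. GACCACCC is the canonical Gli-binding motif (cGBM), GACCTCCC is the divergent form (dGBM, substitution A5T, counted from 1 at the left end of GACCACCC), and CANNTG is the E-box recognised by Hand2 and other bHLH factors. Here both names stand for exact matches. The authors classed peaks by looser rules, a partial match to a canonical motif for the cGBM and, in peaks without it, CCTCC or more for the dGBM. All stretches are plus strand of GRCm38 (mm10), written 5′ to 3′. Capitals mark GACCNCCC or its reverse complement and CANNTG. The stretch between *Dlx1* and *Dlx2* covers chr2:71538365-71538664, where Gli3 MNP and Hand2 peaks overlap. The stretch between *Dlx6* and *Dlx5* is the Gli3 whole face peak at chr6:6875138-6875360, which lies inside a Gli3 MNP and a Hand2 peak. The stretch upstream of *Dlx4*, at chr11:95210681-95210850, is common to all 3 lists. All of these are intergenic. A window of 30 bases at chr6:6863557-6863586 surrounds the dGBM in the coding sequence of *Dlx6*, and a window of the same size at chr6:6880908-6880937 surrounds GACCCCCC (substitution A5C) in an exon annotated to *Dlx5*.
Dlx1/Dlx2 interval: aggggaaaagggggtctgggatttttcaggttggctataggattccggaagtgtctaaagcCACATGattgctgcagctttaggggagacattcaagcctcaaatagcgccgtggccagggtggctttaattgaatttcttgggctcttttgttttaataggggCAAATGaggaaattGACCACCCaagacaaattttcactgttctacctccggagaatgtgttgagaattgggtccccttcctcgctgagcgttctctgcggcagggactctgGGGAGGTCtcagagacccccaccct
Dlx5/Dlx6 interval: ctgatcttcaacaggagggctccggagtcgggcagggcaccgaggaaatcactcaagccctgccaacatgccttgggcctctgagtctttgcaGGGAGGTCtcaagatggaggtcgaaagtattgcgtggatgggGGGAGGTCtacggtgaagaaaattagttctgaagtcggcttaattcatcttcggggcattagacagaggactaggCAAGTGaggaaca
Dlx4 upstream site: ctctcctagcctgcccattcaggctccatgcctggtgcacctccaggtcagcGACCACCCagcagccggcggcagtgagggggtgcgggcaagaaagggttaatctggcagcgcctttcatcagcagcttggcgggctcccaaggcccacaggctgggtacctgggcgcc
Dlx6 gene: cactcgcagcaGACCTCCCcggccatggca
Dlx5 gene: gtgtgtgtgggGGGGGGTCcctctaacaga

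Another 2 sites present in both Gli3 lists held no GACCNCCC. Their shared stretches are printed for contrast, one far upstream of *Dlx6* (chr6:6786008-6786216, intergenic) and one 2165 bp upstream of the transcription start site (TSS) of *Dlx1* (chr2:71525875-71526086, in an intron of the antisense gene *Dlx1as*). Both held GCCCACCC (A2C), in capitals as its reverse complement, together with the E-box CACCTG in the *Dlx1* stretch. This 8-mer was picked after the sequences had been seen, and it occurs in 13.5% of all peaks in the Gli3 MNP list, 9.37% in the whole face list and 3.09% in the Hand2 list.
Dlx6 distal site: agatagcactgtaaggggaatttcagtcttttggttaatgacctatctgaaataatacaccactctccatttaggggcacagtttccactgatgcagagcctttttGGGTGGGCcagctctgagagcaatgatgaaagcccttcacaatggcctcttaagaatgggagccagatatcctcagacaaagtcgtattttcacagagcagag
Dlx1 upstream site: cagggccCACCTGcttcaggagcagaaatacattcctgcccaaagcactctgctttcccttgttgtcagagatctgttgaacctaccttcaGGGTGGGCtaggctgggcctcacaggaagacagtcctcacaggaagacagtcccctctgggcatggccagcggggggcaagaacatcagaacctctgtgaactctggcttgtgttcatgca

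The *Dlx1*/*Dlx2* and *Dlx5*/*Dlx6* pairs were nearly alike in their number of peaks, and *Dlx3*/*Dlx4* had fewer. Around *Dlx1*/*Dlx2* there were 4 Gli3 MNP, 4 Gli3 whole face and 20 Hand2 peaks. Around *Dlx5*/*Dlx6* there were 4, 3 and 20, and around *Dlx3*/*Dlx4* 1, 3 and 12. All 6 *Dlx* genes thus had at least 1 peak of every list within 100 kb, compared to 56.1% of the 21951 protein-coding genes for Gli3 MNP, 46.1% for Gli3 whole face and 89.0% for Hand2. All 6 also had at least 1 Gli3 MNP peak that overlapped Hand2 by 1 bp or more, compared to 41.6% of genes, and at least 1 Gli3 MNP peak that overlapped both other lists, compared to 16.5%. The genes of a pair share these Gli3 peaks, so the 6 genes stand for 3 loci. For *Dlx3* and *Dlx4* the count rests on 1 Gli3 MNP peak, 64519 bp from *Dlx4*. Per 100 kb of window, Hand2 peaks numbered 9.15 for *Dlx1*/*Dlx2*, 9.14 for *Dlx5*/*Dlx6* and 5.31 for *Dlx3*/*Dlx4*, against 2.19 per 100 kb of the genome. Gli3 MNP peaks numbered 1.83, 1.83 and 0.44 per 100 kb in the same order, against 0.20 in the genome. The counts depended on the limit of 100 kb. For *Dlx1*/*Dlx2*, *Dlx3*/*Dlx4* and *Dlx5*/*Dlx6*, Hand2 peaks numbered 15, 6 and 13 within 50 kb and 29, 25 and 24 within 200 kb. In the same order, the outermost Hand2 peaks inside 100 kb lay 84519, 92352 and 76872 bp from the gene bodies. The first ones outside lay at 105698, 110390 and 108331 bp. For Gli3 MNP these distances were 4646, 64519 and 77123 bp inside, and 138555, 127251 and 284945 bp outside. Windows around genes are not a random sample of the genome, so the counts over genes are the closer comparison.

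**Figure D1:**
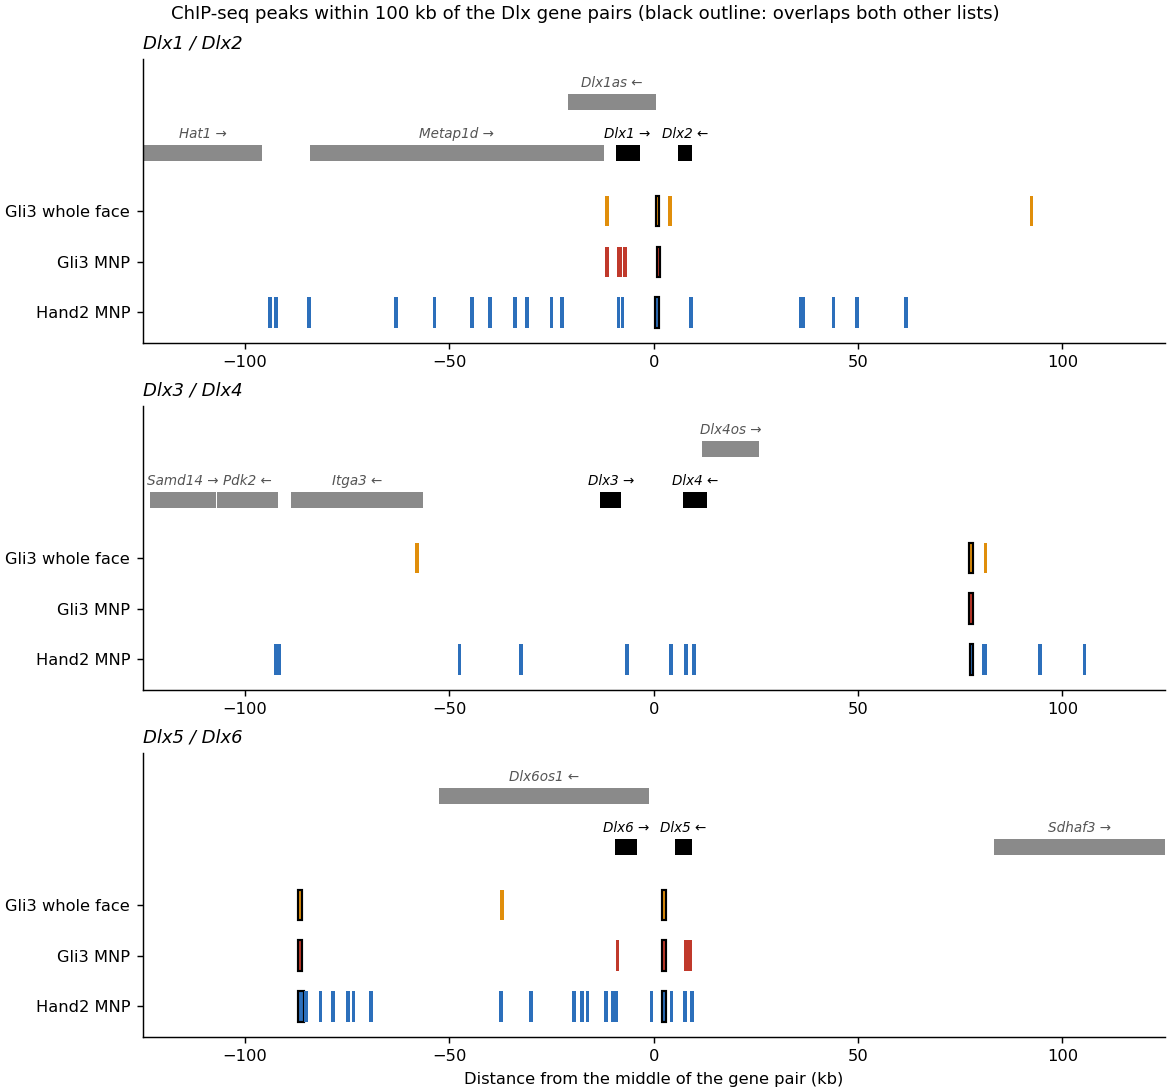
Peaks of the 3 lists around each *Dlx* pair, by distance from the middle of the pair in kb (peaks drawn at least 0.9 kb wide, black outline for peaks that overlap both other lists, arrows for the direction of transcription). The *Dlx5*/*Dlx6* peaks end at the *Dlx5* promoter, with 14 Hand2 peaks wholly upstream of the *Dlx6* TSS and 0 wholly upstream of the *Dlx5* TSS.

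Around *Dlx5*/*Dlx6*, the peaks that lay wholly outside the pair all fell on the *Dlx6* side. A total of 14 Hand2 peaks lay wholly upstream of the *Dlx6* TSS, and 0 lay wholly upstream of the *Dlx5* TSS, on the side of *Sdhaf3*, a gene for an assembly factor of succinate dehydrogenase. Beyond *Dlx5* the next Hand2 peak was 144426 bp from its TSS and the next Gli3 MNP peak 962463 bp. The nearest protein-coding TSS was that of *Dlx6* for 16 Hand2 peaks and that of *Dlx5* for the other 4. Of the 14 upstream peaks, 7 formed a row of 17844 bp (chr6:6785785-6803628), separated by 31135 bp without a peak from the 7 nearer to *Dlx6*. The row was intergenic, and its widest peak of 1355 bp (chr6:6785785-6787139) was also the widest Hand2 peak of all 3 windows. The 7 nearer ones all lay in introns of *Dlx6os1*, the long noncoding RNA gene that runs antisense through *Dlx6*.

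All 4 Gli3 MNP peaks around *Dlx5*/*Dlx6* overlapped Hand2. The peak at *Dlx5* (chr6:6880121-6882176) covered the TSS and reached into the gene over 2056 bp, a width reached by 82 of all 5427 Gli3 MNP peaks (1.51%). It overlapped 2 Hand2 peaks, one across the TSS (chr6:6881788-6882442) and one in an intron (chr6:6879911-6880890). The peak at *Dlx6* (chr6:6863375-6864303, 929 bp) started downstream of the TSS and had its midpoint 505 bp from it, while the Hand2 peak there (chr6:6863263-6863714) covered the TSS. Neither gene peak had a counterpart in the Gli3 whole face list. The remaining pair of Gli3 MNP peaks was present in all 3 lists. One lay between the genes (chr6:6874991-6875489, 499 bp), 6845 bp from the *Dlx5* TSS, and Hand2 covered 100% of it. The other (chr6:6786008-6786414, 407 bp) lay 77123 bp upstream of *Dlx6*, inside the first Hand2 peak of the row. The remaining whole face peak (chr6:6835457-6835693), in a *Dlx6os1* intron 27759 bp upstream of *Dlx6*, overlapped Hand2 but no Gli3 MNP peak. Between the genes there were also 2 Hand2 peaks without Gli3, at chr6:6872013-6872351 and chr6:6876908-6877186.

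Around *Dlx1*/*Dlx2*, Gli3 MNP peaks gathered on *Dlx1* and the space between the genes, and *Dlx2* itself had Hand2 alone. Inside *Dlx1* lay 2 Gli3 MNP peaks that the whole face list lacked, one of 1227 bp with its midpoint in a UTR, 1005 bp from the TSS (chr2:71528505-71529731), and one of 979 bp in an intron (chr2:71529933-71530911). The first overlapped 2 Hand2 peaks (chr2:71528600-71529008 and chr2:71529570-71530092), and the second of these Hand2 peaks reached into both Gli3 peaks. The *Dlx1* TSS was covered by no peak of the 3 lists. The Gli3 MNP peak between the genes (chr2:71538166-71539088, 923 bp) was in all 3 lists, 8127 bp from the *Dlx2* TSS. Its Hand2 partner (chr2:71537740-71538664) covered 54.1% of it and the whole face peak (chr2:71538226-71538532) lay wholly inside that Hand2 peak. The site upstream of *Dlx1* (chr2:71525798-71526099, 302 bp) was in both Gli3 lists and did not overlap Hand2. It was the only one of the 9 Gli3 MNP peaks without Hand2.

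Another 2 whole face peaks had neither Gli3 MNP nor Hand2, one between the genes 5287 bp from the *Dlx2* TSS (chr2:71541365-71541570) and one 83147 bp upstream of *Dlx2* (chr2:71629783-71630020). The *Dlx2* TSS was covered by a Hand2 peak of 572 bp (chr2:71546261-71546832). Upstream of *Dlx2* the next Gli3 MNP peak was 929149 bp away, while Hand2 had 5 peaks in the window. Upstream of *Dlx1* there were 11 Hand2 peaks, of which 8 lay in *Metap1d*, a gene for a mitochondrial methionine aminopeptidase, 7 of them in its introns. The nearest TSS was that of *Dlx1* for 8 of the 20 Hand2 peaks, that of *Dlx2* for 7 and that of *Metap1d* for 5. The window also reached into *Hat1*, a histone acetyltransferase gene.

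The *Dlx3*/*Dlx4* pair had 1 Gli3 site bound in the MNP, and it lay far from both genes. The peak (chr11:95210629-95210936, 308 bp) was in all 3 lists and 64519 bp upstream of *Dlx4*. The nearest protein-coding TSS was that of *Tac4*, a tachykinin precursor gene, at 50747 bp. A whole face peak close by (chr11:95214282-95214491) overlapped a Hand2 peak of 1194 bp (chr11:95213606-95214799) but no Gli3 MNP peak. The last whole face peak (chr11:95075160-95075502) had neither and lay in an intron of *Itga3*, the integrin alpha 3 gene, 1470 bp from its TSS. Gli3 had no peak in the body of *Dlx3* or *Dlx4* or between them. Hand2 had 2 peaks in *Dlx4*, in a UTR (chr11:95140970-95141350) and an intron (chr11:95142937-95143290), and 2 between the genes (chr11:95126555-95126898 and chr11:95137290-95137708). No peak of the 3 lists covered the TSS of *Dlx3* or *Dlx4*. The nearest TSS belonged to *Dlx3* for 2 of the 12 Hand2 peaks and to *Dlx4* for 3, and to *Tac4* for 4, to *Pdk2* (a pyruvate dehydrogenase kinase) for 2 and to *Itga3* for 1. The antisense gene *Dlx4os* overlaps *Dlx4*, and the window also reached *Samd14*. Of the 3 windows this one therefore held the fewest peaks nearest to a *Dlx* gene.

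Merged over both Gli3 lists, the 19 Gli3 peaks formed 14 sites. The lists shared 5 sites, of which 4 overlapped Hand2. A further 4 were in the MNP list alone, and all 4 overlapped Hand2. The last 5 were in the whole face list alone, and 2 of them overlapped Hand2. A whole face counterpart was thus present for 5 of 9 Gli3 MNP peaks, compared to 39.2% of that list. For 5 of 10 whole face peaks there was an MNP counterpart, compared to 37.6%. In the whole Gli3 MNP list, 37.2% of peaks had Hand2 without a whole face peak, and 23.6% had neither. Counted as peaks, 8 of 9 Gli3 MNP peaks overlapped Hand2 (88.9%), compared to 61.4% of the whole list. The 9 peaks lie at 3 loci, 2 of them meet the same Hand2 peak, and all are part of the list. The shares are therefore a description, and a difference between them was not tested. The share depended on the overlap required. With Hand2 covering at least 50% of the Gli3 peak it was 5 of 9, compared to 44.4% of the list, and with the Gli3 midpoint inside a Hand2 peak it was 4 of 9, compared to 45.8%. Of the 10 whole face peaks, 6 overlapped Hand2, compared to 47.6% of that list, and the same number did under both stricter rules. Seen from Hand2, 17 of 20 peaks around *Dlx1*/*Dlx2*, 10 of 12 around *Dlx3*/*Dlx4* and 14 of 20 around *Dlx5*/*Dlx6* had no Gli3 peak of either tissue. Most peaks of the whole Hand2 list had none either, since 5.89% overlapped Gli3 MNP and 4.54% overlapped Gli3 whole face. Of the 52 *Dlx* peaks, 9 and 6 did. The whole face list was made in another way, since each of its 5752 entries names both replicates against a mock ChIP and an input, and its median peak is 222 bp wide compared to 577 bp for Gli3 MNP. The part of this in the differences between tissues was not tested. The whole face includes the MNP, so a peak listed for the MNP alone was not called in the mixed tissue rather than shown to be absent from it. For the same reason, a peak in both Gli3 lists may come from MNP cells alone. It does not show binding in the rest of the face.

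**Figure D2:**
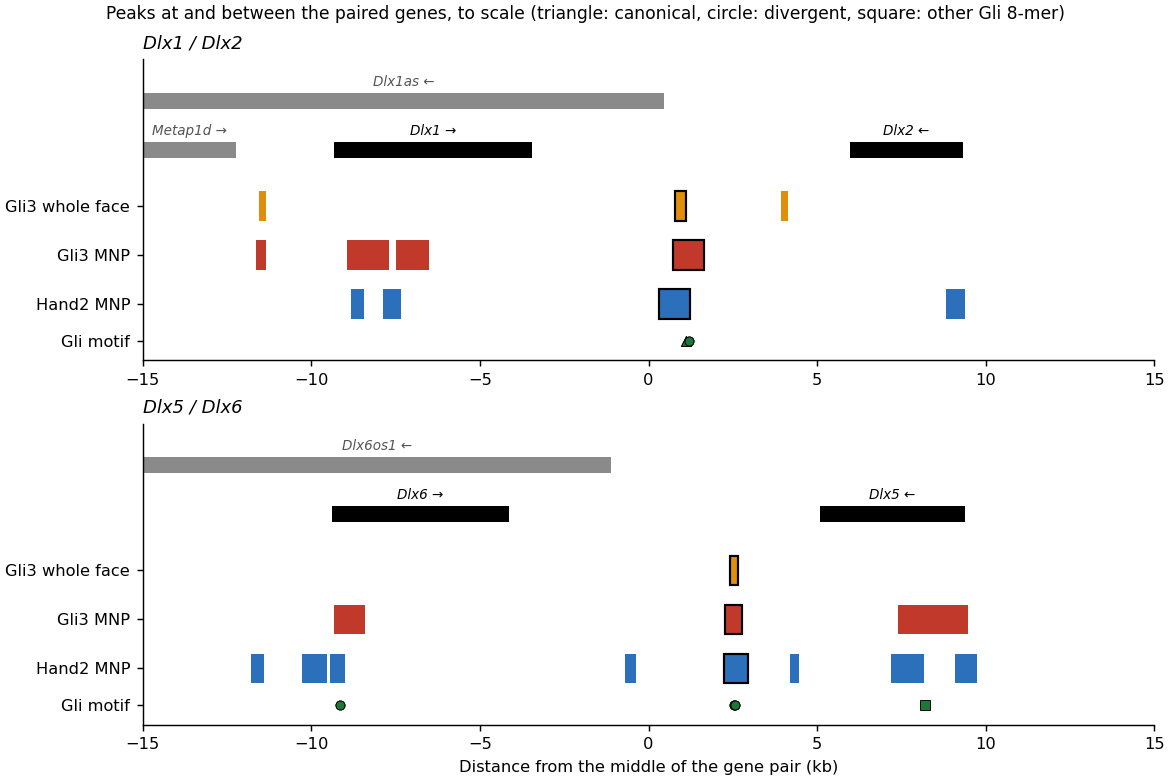
Peaks at and between the genes of *Dlx1*/*Dlx2* and *Dlx5*/*Dlx6*, drawn to scale by distance from the middle of the pair in kb, with Gli 8-mers found in the Gli3 MNP or Hand2 peaks below. The 4 Gli3 MNP peaks on gene bodies have no whole face peak, and the 2 peaks between genes are in all 3 lists.

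The 4 Gli3 MNP peaks on *Dlx* gene bodies were wider than those shared with the whole face. Their widths were 929, 979, 1227 and 2056 bp, with a median of 1103 bp, and their GC content was 54.5 to 69.0%. The 4 peaks in all 3 lists were 308, 407, 499 and 923 bp wide, with a median of 453 bp. The same order held over the whole list, where Gli3 MNP peaks with Hand2 and without a whole face peak had a median of 755 bp and those with both 510.5 bp. Promoter peaks, whose midpoint was at most 1 kb from the TSS of a protein-coding gene, made up 76.8% of the former and 30.6% of the latter. Near *Dlx* genes 2 of 4 and 0 of 4 were promoter peaks, and the wider peak in *Dlx1* was just outside this distance at 1005 bp. Over all peaks in the *Dlx* windows, 2 of 9 Gli3 MNP, 0 of 10 whole face and 8 of 52 Hand2 peaks were at promoters. The shares of the lists were 56.5%, 18.8% and 10.8%. Not all of these were *Dlx* promoters. Both Hand2 promoter peaks in the *Dlx3*/*Dlx4* window were at *Pdk2*, 588 and 260 bp from its TSS. In the *Dlx1*/*Dlx2* window, a Hand2 promoter peak lay 129 bp from the TSS of *Metap1d*.

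**Figure D3:**
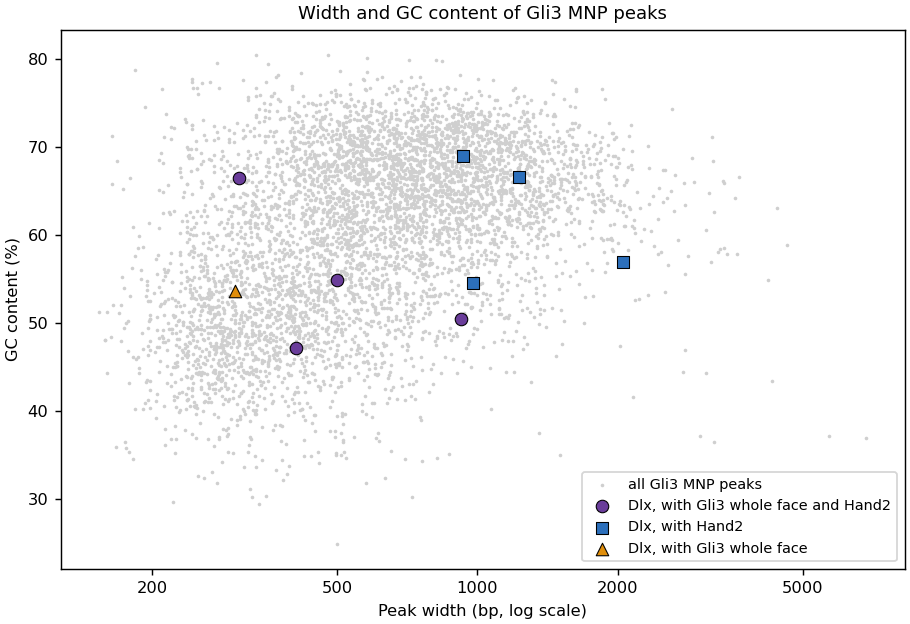
Width (bp, log scale) against GC content (%) of all 5427 Gli3 MNP peaks (grey) with the 9 *Dlx* peaks by class. The 4 *Dlx* peaks with Hand2 alone (squares) are 929 to 2056 bp wide, and the 4 with Hand2 and whole face Gli3 (circles) are 308 to 923 bp wide.

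The Gli3 MNP list kept unlike shares of the peak numbers of its 2 replicates. It holds 5536 numbers of replicate 1 and 6001 of replicate 2. Each entry names the peaks of replicates 1 and 2 that were merged into it, and the numbers in these names followed position along the genome without exception in the Gli3 MNP and Hand2 lists. The highest number in the Gli3 MNP list was 19518 for replicate 1 and 6394 for replicate 2, of which 28.4% and 93.9% appeared in the list. For Hand2 the highest numbers were 75674 and 82372, with 80.7% and 73.0% in the list. Between the first and last Gli3 MNP peak of *Dlx5*/*Dlx6*, 15 numbers of replicate 1 and 0 of replicate 2 were skipped, and 6 and 0 between those of *Dlx1*/*Dlx2*. All 6 of the latter fell in the stretch between the *Dlx1* intron peak and the peak between the genes. Replicate 1 was therefore called with more Gli3 peaks at these loci than the shared list holds, and their positions are not known from it.

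Both the cGBM and the dGBM were found at *Dlx* sites, side by side in 1 peak and separately in others. The peak between *Dlx1* and *Dlx2* held 1 cGBM (chr2:71538543-71538550) and 1 dGBM (chr2:71538640-71538647, minus strand), 80 and 17 bp from the middle of the Gli3 MNP peak. Both lay in the Hand2 peak and outside the whole face peak. The E-box CAAATG stood 8 bases before the cGBM. Both forms together were present in 38 of all 5427 Gli3 MNP peaks (0.70%). Between *Dlx6* and *Dlx5*, the peak held 2 dGBMs and no cGBM (chr6:6875231-6875238 and chr6:6875273-6875280, both on the minus strand), 5 and 37 bp from the middle of the Gli3 MNP peak. All 3 lists covered both copies, and the E-box CAAGTG followed at 109 and 67 bases. A peak with 2 or more dGBMs was found 15 times among the 5427 Gli3 MNP peaks (0.28%) and 9 times among the 5752 whole face peaks (0.16%). Neither 2 dGBMs nor both forms together was a motif count set in advance, so these low shares describe features seen in these peaks. The peak with both forms is 923 bp wide and that with 2 dGBMs 499 bp, compared to a list median of 577 bp. The other dGBM under a Gli3 MNP peak was the one in the *Dlx6* coding sequence (chr6:6863568-6863575). The *Dlx4* upstream site held 1 cGBM (chr11:95210733-95210740), and none of the Gli3 MNP, whole face and Hand2 peaks there held a CANNTG.

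By count, 2 of 9 Gli3 MNP peaks near *Dlx* genes held GACCACCC (13.3% of the whole list) and 3 held GACCTCCC (6.60%). GACCNCCC was in 5 of 9 (26.7%), and the remaining 4 had an 8-mer with 1 mismatch to GACCACCC. All 9 thus had an 8-mer with at most 1 mismatch, compared to 67.1% of the list. Their median width was 923 bp, compared to 577 bp in the list, and a wider peak offers more places for a match. For the whole face, 1 of 10 peaks held GACCACCC (19.8% of the list) and 1 held GACCTCCC (6.17%). Of the 52 Hand2 peaks, 2 held GACCACCC (1.49% of the list) and 5 held GACCTCCC (1.82%). These Hand2 peaks are partly the same sites, since 3 of those 5 overlapped the Gli3 MNP peaks above. The other 2 had no Gli3 peak, one in a *Metap1d* intron 53751 bp upstream of *Dlx1* (chr2:71474022-71474703) and one in a *Dlx6os1* intron 10147 bp upstream of *Dlx6* (chr6:6852978-6853397). CAGATG, the E-box form preferred by Hand factors, was in 22 of 52 Hand2 peaks compared to 47.1% of the list, and CANNTG was in 46 of 52 compared to 92.3%. In the Gli3 MNP peaks CAGATG was in 4 of 9 (27.2%) and CANNTG in 8 of 9 (83.8%). With 9 or 10 peaks a single site moves a share by at least 10 percentage points, so these shares describe the sites and are no measure of a difference from the list. An exact match does not show that a site was bound, and its absence does not show that it was not.

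Set against all protein-coding genes, *Dlx1*, *Dlx2*, *Dlx5* and *Dlx6* lay towards the high end, and *Dlx3* and *Dlx4* did so for the whole face list. The median gene had 1 Gli3 MNP, 0 whole face and 6 Hand2 peaks within 100 kb. *Dlx1* and *Dlx2* each had 4 Gli3 MNP peaks, and 5.74% of genes had at least as many. For their 4 whole face peaks this share was 3.18%, and for their 20 Hand2 peaks 3.35%. *Dlx5* and *Dlx6* had the same Gli3 MNP and Hand2 counts, and 8.44% of genes reached their 3 whole face peaks. The 4 Gli3 MNP peaks that overlapped Hand2 near *Dlx5* and *Dlx6* were equalled or passed by 1.85% of genes, and their 2 sites in all 3 lists by 2.60%. *Dlx1* and *Dlx2*, with 3 and 1, stood at 5.15% and 16.5%. *Dlx3* had 10 Hand2 peaks (24.2% of genes at least as many) and *Dlx4* had 12 (15.7%). Their single Gli3 MNP peak was matched or passed by 56.1%. Paired genes share nearly all of their peaks, so these are 3 loci and not 6 separate observations, and gene length and gene density also set how many peaks fall within 100 kb.

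**Figure D4:**
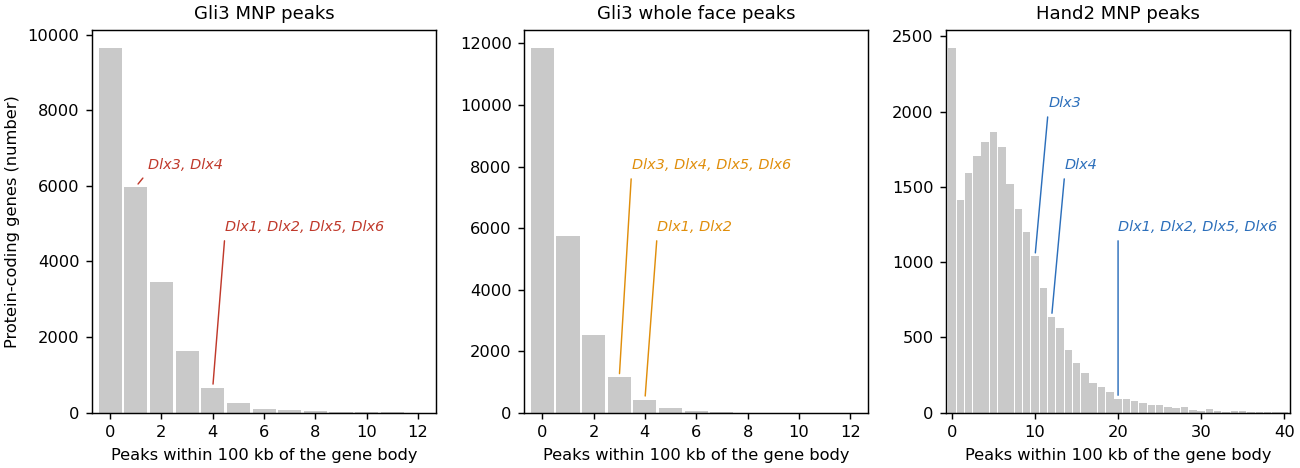
Number of protein-coding genes (y axis) by number of peaks within 100 kb of the gene body (x axis) for each list, with the *Dlx* genes marked (x axes end at 12, 12 and 40 peaks). *Dlx1*, *Dlx2*, *Dlx5* and *Dlx6* stand at 4 Gli3 MNP and 20 Hand2 peaks, and *Dlx3* and *Dlx4* at 1 Gli3 MNP peak.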

How the data were processed

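Positions of peaks were analysed for Gli3 in the MNP, Gli3 in the whole face and Hand2 in the MNP. The authors mapped 1 × 75 bp reads to mm10 with bwa, and the deposited lists hold merged intervals of both replicates with the names of the replicate peaks, and no count, signal or score. Entries of the whole face list name both replicates against both controls, and those of the MNP lists name the replicate peaks alone. BWA, HOMER and bedtools appear in the submitters' processing notes, with no version. Which peak caller made these lists is not stated in the sources, and depth was not analysed.

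Genes and TSSs came from GENCODE vM21 and sequence from the GRCm38 reference. Overlap meant 1 bp or more, places and distances are those of peak midpoints, and motifs were exact matches on either strand of the whole peak. Python 3.11.15, numpy 2.4.6, scipy 1.17.1 and matplotlib 3.10.9 were used, and the programs were tested on simulated data. No test was run, because the loci were chosen by position and the lists carry no replicate values. The *Dlx* pairs, the gene lists and the motifs were chosen with earlier results of these data known. Named were the *Dlx* genes, protein-coding genes and the larger noncoding genes around them, the genes with most overlapping peaks in each list and the genes most like each pair in counts, of which some are not reported here. Alternatives were windows of 50 and 200 kb, the nearest TSS, stricter overlaps, wide peaks, other promoter distances and the middle 200 bp.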

Additional observations from a re-analysis of the deposited data

How the results depend on the processing

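No paired analysis was possible because each list merges both replicates, and for the same reason no replicate could be left out. Of 96 recomputed counts, 59 stayed within 1.5 times the main count and 37 did not. The *Dlx3*/*Dlx4* counts (Gli3 MNP, whole face, Hand2, and Gli3 MNP with Hand2) were 0, 1, 6 and 0 within 50 kb and 3, 6, 25 and 2 within 200 kb. They were 0, 0, 5 and 0 when the nearest TSS had to be that of a *Dlx* gene, and 0, 1, 3 and 0 among peaks no narrower than their list's median. In that wide set *Dlx1*/*Dlx2* had 2 whole face and 6 Hand2 peaks, and *Dlx5*/*Dlx6* had 2 Gli3 MNP peaks, of which 2 overlapped Hand2. Within 50 kb *Dlx5*/*Dlx6* had 13 Hand2 peaks. Gli3 MNP peaks overlapping Hand2 at *Dlx1*/*Dlx2* fell from 3 to 1 when Hand2 had to cover 50% of the peak and to 1 when it had to hold its midpoint, and at *Dlx5*/*Dlx6* the midpoint rule left 2. Promoter peaks numbered 0 (Gli3 MNP) and 5 (Hand2) within 500 bp, and 5 (Gli3 MNP) and 2 (whole face) within 5 kb. In the middle 200 bp, Gli3 MNP peaks with GACCNCCC numbered 3, with CAGATG 0, with CANNTG 5 and with TAATTA 0. In the middle 200 bp, Hand2 peaks with GACCACCC numbered 0, with GACCTCCC 3, with GACCNCCC 3, with CAGATG 14 and with TAATTA 2. A shorter stretch or window holds fewer matches or peaks by construction. No count reversed, since counts have no sign. Unknown depth and the lack of peak heights limit what the absence of a peak can show.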

Other observations

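Peak counts varied widely among genes that act with the *Dlx* genes. Of 28 genes of the endothelin 1 and *Dlx5*/*Dlx6* programme, 20 had at least 1 Gli3 MNP peak within 100 kb, 22 a whole face peak, 28 a Hand2 peak and 15 a Gli3 MNP peak that overlapped Hand2, compared to 56.1%, 46.1%, 89.0% and 41.6% of all protein-coding genes. *Furin*, which encodes a protease that activates secreted precursors, had 3 such overlapping peaks, and *Bmp7* (a BMP ligand), *Barx1* and *Msx1* (homeobox TFs), *Nr2f1* (a nuclear receptor) and *Twist1* (a bHLH TF) were among those with 2. *Edn1*, the ligand, had 0 Gli3 MNP, 0 whole face and 4 Hand2 peaks. Its receptor gene *Ednra* had 0, 1 and 21, and *Hand2* itself had 0, 1 and 20. *Edn1*, *Ednra* and *Hand2* were singled out after their values were seen.

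Of 25 other homeobox genes of jaw mesenchyme, 18 had a Gli3 MNP peak, 21 a whole face peak, 25 a Hand2 peak and 14 a Gli3 MNP peak that overlapped Hand2, beside the same 56.1%, 46.1%, 89.0% and 41.6% of all genes. *Prrx1* had 2 of its 3 Gli3 MNP peaks overlapping Hand2 and 28 Hand2 peaks. *Barx1*, *Msx1* and *Prrx2* also had 2, and *Barx1* and *Msx1* stand in both lists. The median member of the programme list had 1 Gli3 MNP and 13.5 Hand2 peaks and that of the homeobox list 2 and 13, compared to 1 and 6 over all protein-coding genes. The lists were chosen with earlier results of these data known, and no test of them was run.

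The genes closest to each pair in the 3 peak counts, by the sum of absolute differences, were *Hnrnpab*, *Col13a1* and *Hmgb1* for *Dlx1*/*Dlx2* (sum 1), *Asb18*, *Dcxr* and *Cbr2* for *Dlx3*/*Dlx4* (sum 0) and *Gm973*, *Snap47* and *Efl1* for *Dlx5*/*Dlx6* (sum 1). At these sums there were 6, 14 and 8 genes, so the counts alone do not single out a pair.

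The homeodomain motif TAATTA, which Dlx proteins can bind, was in 1 of 9 Gli3 MNP peaks (7.13% of the list), 0 of 10 whole face peaks (8.85%) and 6 of 52 Hand2 peaks (14.8%). The Gli3 MNP peak that held it was the one in the *Dlx1* intron, with 2 copies, and the Hand2 peaks included the one between *Dlx1* and *Dlx2* and the one over the *Dlx2* TSS.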
